A study of Mus musculus with 32 samples.

Results

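The loci described are tRNA-Asp-GTC-1-5, tRNA-Pro-CGG-1-1 and tRNA-Ala-TGC-3-1, 3 mouse tRNA genes that were measured by ATAC-seq together with 398 others. In ATAC-seq a transposase inserts adapters where chromatin is open, so that read depth reports accessibility. They were selected on the measured values, as the tRNA genes with the largest log2 rise in the liver of mice lacking tRNA-Phe-GAA-2-1. Their rise in that liver comparison is therefore a description, and the selection used no values of brain, of the Phe11 livers or of the livers of the Phe31 table. The libraries came from nuclei of fresh brain or liver of male C57BL/6N mice, either wild type or homozygous for a CRISPR-Cas9 deletion of tRNA-Phe-GAA-1-1 (Phe11), tRNA-Phe-GAA-2-1 (Phe21) or tRNA-Phe-GAA-3-1 (Phe31), with age- and littermate-matched wild types. The deletions are carried in every cell, and all knockout mice of a genotype belong to 1 line. The mice were 10 weeks old. The question the study put to these libraries was whether loss of 1 tRNA-Phe gene alters accessibility at other tRNA genes.

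A tRNA carries 1 amino acid to the ribosome and reads a codon of the messenger RNA through its 3-base anticodon. tRNA genes are transcribed by RNA polymerase III from promoter elements that lie inside the gene, called box A and box B, and accessibility over the gene is used as a proxy for its transcription. Most tRNA species are encoded by several genes, and a name such as tRNA-Asp-GTC-1-5 gives the amino acid (aspartate), the anticodon (GTC), the group of genes with an identical tRNA sequence (1) and the copy within that group (5). tRNA-Pro-CGG-1-1 is a gene for a proline tRNA and tRNA-Ala-TGC-3-1 a gene for an alanine tRNA. Liver and brain are both rich in translation, and the use of individual tRNA genes is known to differ between tissues while the pools for each anticodon are steadier.

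The sequences of the groups that hold the aspartate and the proline gene are shown because many copies share them base for base. A search of the GRCm39 genome for the tRNA fold found 13 identical copies with the anticodon GTC and 3 identical copies with the anticodon CGG, the same numbers as the deposited names list for tRNA-Asp-GTC-1 and tRNA-Pro-CGG-1. Each copy is 72 bases long. The first run of capitals is the anticodon (bases 34 to 36 in the aspartate gene, 33 to 35 in the proline gene, counted from 1 at the 5′ end) and the second is box B (bases 51 to 61 in both).
tRNA-Asp-GTC-1: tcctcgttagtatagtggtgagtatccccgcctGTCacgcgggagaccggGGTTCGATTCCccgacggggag
tRNA-Pro-CGG-1: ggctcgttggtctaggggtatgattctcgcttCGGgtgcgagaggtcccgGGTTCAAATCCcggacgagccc

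The 3 copies of tRNA-Pro-CGG-1 lie at chr1:165469840-165469911 on the minus strand, at chr11:68931211-68931282 on the plus strand and at chr17:23759889-23759960 on the plus strand of GRCm39. None overlaps an exon of the GENCODE annotation, and the copy on chromosome 17 lies within the span of the lncRNA gene Gm41543, which runs on the opposite strand. The copy on chromosome 11 is separated by 528 bases from a copy of tRNA-Asp-GTC-1 at chr11:68931810-68931881. The 13 copies of tRNA-Asp-GTC-1 lie on chromosomes 1, 5, 10, 11 and 13. The deposited tables give names and no positions, so which of these copies is tRNA-Asp-GTC-1-5 or tRNA-Pro-CGG-1-1 is not given in the sources used here, and no sequence is shown for tRNA-Ala-TGC-3-1 because the copies found for its anticodon could not be matched to the names by number.

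Reads were counted by the authors over each gene with 50 bases on each side, so copies with the same gene body can be told apart by reads that reach the flanks. Over the 100 flanking bases, the 3 pairs of tRNA-Pro-CGG-1 copies were identical at 30% to 37% of positions. Of the 78 pairs of tRNA-Asp-GTC-1 copies, 1 pair, on chromosome 1, had identical flanks and the median pair was identical at 28% of positions. A further copy on chromosome 1 (chr1:170892927-170892998, over an exon of Fcgr3) had flanks 99% identical to those of another copy, so that 3 of the 13 copies can hardly be told apart by flanks. The authors filtered alignments by mapping quality, and how many read pairs within the body this removed was not tested. Counts of copies with the same body remain uncertain to the extent that reads lie within it.

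The 15 brain libraries held 20315 to 35565 reads over all tRNA loci and the 17 liver libraries 4719 to 23754. The signal at a locus is the read count divided by 1 size factor per library, called the normalised count, and each comparison has its own table and scale. In Phe21 mice the deleted locus tRNA-Phe-GAA-2-1 held 1 read in 3 livers against 7 in the 3 wild-type livers of the table, and 2 reads in 3 brains against 23. In Phe11 liver the mean normalised count of tRNA-Phe-GAA-1-1 was 3.18 against 22.0 in wild type. In Phe11 brain the loss was less complete, at 36.7 against 108, with 171 reads left in the 4 knockouts, and in Phe31 brain tRNA-Phe-GAA-3-1 read 2.2 against 45.8. The livers labelled Phe31 held tRNA-Phe-GAA-3-1 at 9.74 against 12.9, and tRNA-Phe-GAA-1-1 at 0.751 against 7.54, which goes against their label, so they are called the livers labelled Phe31. Wild-type liver replicates 1 and 22 differed by less than the sampling noise (chi-square over degrees of freedom 0.44). They count as 1 sample in the means ± SD of the members, and as separate libraries in the fits, in the deleted loci and in the means of other loci. Wild-type livers 3 and 24 (0.744), wild-type brains 3 and 18 (0.741) and Phe11 livers 6 and 20 (0.764) were also closer than sampling gives, but were kept as separate samples. The study describes the control libraries as separate mice, and whether these pairs are separate animals was not tested. If they are not, the p-values of fits that hold them are too small. Start-site windows were at hand for 3 of 5 liver markers and 3 of 5 brain markers. Peaks lay over all 3 liver windows (Alb, Apoa1 and Apob) in each liver peak list and over 0 of them in each brain list, while 2 brain windows (Syt1 and Rbfox3) had a peak in each brain list and Syt1 also had one in the Phe11 and Phe21 liver lists.

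All 3 loci rose in Phe21 liver by close to 1 on the log2 scale, which is what they were selected for. At tRNA-Asp-GTC-1-5 the normalised counts were 22.7, 22.4 and 22.8 in wild-type replicates 1, 3 and 24, and 46.3, 46.3 and 42.9 in Phe21 replicates 7, 8 and 9. The wild-type livers were nearly equal, and every Phe21 liver lay at about double their level. With 19, 16 and 20 reads behind them, the wild-type values lay closer together than counting error gives. The means were 22.6 ± 0.200 and 45.2 ± 1.98 (SD, n = 3 each), a log2 change of 0.97 on log2(value + 1).

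At tRNA-Pro-CGG-1-1 the wild-type livers read 17.9, 35.0 and 31.9 and the Phe21 livers 57.8, 55.0 and 49.2 normalised counts. Wild-type replicate 1 was the lowest, and the groups did not overlap. The means were 28.3 ± 9.12 and 54.0 ± 4.37 (SD, n = 3 each), a log2 change of 0.96. At tRNA-Ala-TGC-3-1 the wild-type livers read 57.3, 35.0 and 53.6 and the Phe21 livers 90.9, 94.3 and 93.2. Here wild-type replicate 3 was the lowest, so the library that lowered the wild-type mean differed between these loci. The means were 48.6 ± 11.9 and 92.8 ± 1.73 (SD, n = 3 each), a log2 change of 0.95.

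Reads behind these values were few in wild type. The 3 wild-type livers together held 55 reads at tRNA-Asp-GTC-1-5, 68 at tRNA-Pro-CGG-1-1 and 120 at tRNA-Ala-TGC-3-1, and the 3 Phe21 livers 177, 213 and 360. The Phe21 livers were also sequenced more deeply over tRNA loci, with 11278 to 18575 reads against 7895 to 9739 in these 3 wild-type livers. The part of depth in the difference was not tested. Groups with every knockout above every wild type were found at 20.4% of the 201 loci tested in Phe21 liver. Limma, at a Benjamini-Hochberg adjusted p under the threshold of 0.05, called 8.46% of these loci higher and 4.98% lower, or 17 and 10. The split was 28 and 9 under TMM scaling, 14 and 13 with equal library totals, 11 and 19 under loess, 11 and 23 by edgeR and 6 and 11 by DESeq2. Among loci called higher, tRNA-Ala-TGC-3-1 was the last one included (0.95). The next in order were tRNA-Ser-TGA-1-1, a serine tRNA gene (log2 change 0.86, from 50.8 to 91.9 normalised counts), and tRNA-His-GTG-2-1, a histidine tRNA gene (0.65, from 46.2 to 74.2). With the libraries of batch 1 alone, which leaves out wild-type replicate 24, the log2 changes of the 3 loci were 0.97, 1.07 and 1.03. Leaving out each library in turn gave 0.95 to 1.00, 0.67 to 1.14 and 0.73 to 1.08.

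**Figure D1:**
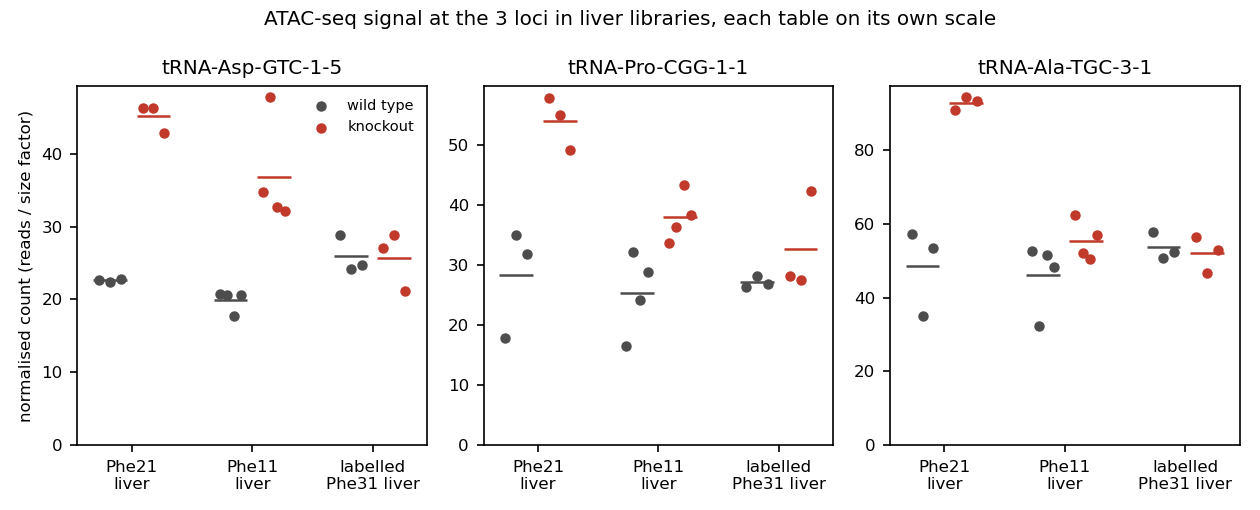
Normalised counts (reads over size factor, vertical axis) of the 3 loci in each liver library of the Phe21, Phe11 and labelled Phe31 tables, with wild type in grey, knockout in red and lines at the mean of the libraries shown. In Phe21 liver the knockout points lie above every wild-type point at each locus, while in the livers labelled Phe31 the points of both groups overlap.

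A second set of wild-type livers gave another picture of the level of these loci. The columns of the 3 wild-type livers of the Phe31 table carry no sample number that matches the labels, so these livers are called unnumbered. By the deposited list of comparisons they belong to batch 3. They did not enter the selection. Since the tables were scaled separately, levels were set side by side as reads per 10000 reads over all tRNA loci, from whole reads recovered from the tables. At tRNA-Asp-GTC-1-5 the numbered wild-type livers held 17.8 to 20.5 such reads (mean 20.0 ± 0.752, SD, n = 3 with replicates 1 and 22 as 1 sample), and the unnumbered ones 36.2 to 44.1 (mean 39.3 ± 4.22, SD, n = 3). The Phe21 livers lay at 36.4 to 41.5 (mean 39.7 ± 2.93, SD, n = 3), within the range of the unnumbered wild-type livers and above every numbered one.

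tRNA-Ala-TGC-3-1 had the same order. The numbered wild-type livers held 31.7 to 51.7 reads per 10000 (mean 43.9 ± 10.7, SD, n = 3), the unnumbered ones 75.9 to 88.1 (mean 81.1 ± 6.32, SD, n = 3) and the Phe21 livers 78.9 to 84.2 (mean 81.5 ± 2.67, SD, n = 3). For tRNA-Pro-CGG-1-1 the means were 26.9 ± 5.96, 41.0 ± 0.898 and 47.5 ± 5.20 in the same order, and the Phe21 livers (41.7 to 51.7) reached above the unnumbered wild types (40.3 to 42.0).

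On log2(reads per 10000 + 1), the unnumbered wild-type livers exceeded the numbered ones by 0.94 at tRNA-Asp-GTC-1-5, 0.62 at tRNA-Pro-CGG-1-1 and 0.90 at tRNA-Ala-TGC-3-1, the 5th, 16th and 6th largest differences of 200 loci, whose median difference was 0.00. The Phe21 livers exceeded the unnumbered wild types by 0.02, 0.20 and 0.01, with a median over loci of 0.04. With median-of-ratios scaling in place of totals, the first differences were 0.95, 0.64 and 0.91 and the second -0.03, 0.16 and -0.04. All 3 loci were higher in every unnumbered than in every numbered wild-type liver, as were 19% of the 200 loci. The numbered and unnumbered wild-type livers differed across loci, with a chi-square over degrees of freedom of 2.193 to 2.593 in their 12 pairs against 0.922 to 1.077 within the unnumbered set. Depth overlapped between the sets, at 6186 to 9739 reads in the numbered and 7943 to 9329 in the unnumbered livers. The low level of the numbered livers was part of what selected these loci, so the difference between the sets is a description. Set and batch cannot be told apart, since batch 3 holds the livers of the Phe31 table alone.

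**Figure D2:**
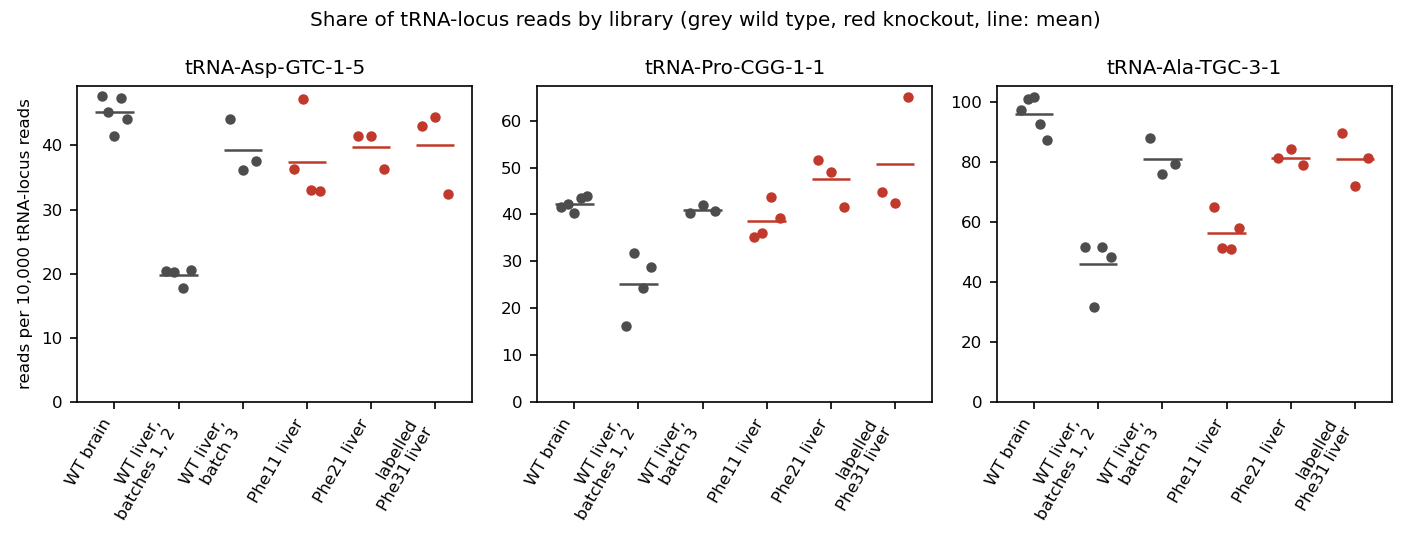
Reads per 10000 reads over all tRNA loci (vertical axis) for each library of wild-type brain, wild-type liver of batches 1 and 2 (the numbered livers), wild-type liver of batch 3 (the unnumbered livers) and the knockout livers, with wild type in grey, knockout in red and lines at the mean of the libraries shown. The numbered wild-type livers are the lowest set in each panel. At the aspartate and alanine loci the unnumbered wild-type livers lie near the Phe21 livers and the livers labelled Phe31. At the proline locus their mean (41.0) is below those of both (47.5 and 50.7) and nearer to that of Phe11 liver (38.6).

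In Phe11 liver the aspartate and proline loci also stood above wild type, and the alanine locus did so less. This comparison shares wild-type replicates 1, 3 and 24 with the Phe21 comparison, so its values are a description too. At tRNA-Asp-GTC-1-5 wild-type replicates 1, 3, 22 and 24 read 20.8, 20.6, 17.7 and 20.6 normalised counts and Phe11 replicates 4, 6, 20 and 21 read 34.7, 47.8, 32.8 and 32.2. All Phe11 livers were above all wild types, and replicate 6 was the highest. At tRNA-Pro-CGG-1-1 the wild types read 16.4, 32.2, 24.1 and 28.8 and the Phe11 livers 33.7, 36.4, 43.4 and 38.4, which left a gap between the highest wild type and the lowest knockout that was smaller than the spread within either group. At tRNA-Ala-TGC-3-1 the wild types read 52.6, 32.2, 51.5 and 48.3 and the Phe11 livers 62.3, 52.0, 50.5 and 56.9, and the groups overlapped.

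The log2 changes in Phe11 liver, with batch as a term, were 0.84 for tRNA-Asp-GTC-1-5, 0.60 for tRNA-Pro-CGG-1-1 and 0.28 for tRNA-Ala-TGC-3-1. Within batch 1 they were 0.94, 0.58 and 0.46, and within batch 2 they were 0.74, 0.61 and 0.10. With wild-type replicates 1 and 22 averaged they were 0.82, 0.49 and 0.34. Leaving out each library in turn gave 0.73 to 0.91, 0.41 to 0.79 and 0.11 to 0.38, and the 0.11 of tRNA-Ala-TGC-3-1 was found without wild-type replicate 3. Every knockout lay above every wild type at 5.31% of the 207 loci tested. On the common scale, tRNA-Ala-TGC-3-1 held 51.0 to 65.1 reads per 10000 in the Phe11 livers (mean 56.4 ± 6.67, SD, n = 4), below the Phe21 livers and below the unnumbered wild types. At tRNA-Asp-GTC-1-5 the Phe11 mean was 37.4 ± 6.80 and at tRNA-Pro-CGG-1-1 38.6 ± 3.90 (SD, n = 4 each), both below the unnumbered wild-type means by less than the SD of the Phe11 livers.

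Wild-type replicate 22 was the single numbered wild-type liver outside the selection. It differed from replicate 1, which the selection used, by less than sampling noise, so a comparison with it is not independent of the selection and is given without a test. It lies in batch 2, so with batch as a term the estimate rests on Phe11 replicates 20 and 21. These differed from it by 0.84 on the log2 scale at tRNA-Asp-GTC-1-5, by 0.73 at tRNA-Pro-CGG-1-1 and by 0.06 at tRNA-Ala-TGC-3-1.

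In the livers labelled Phe31 the 3 loci did not differ from their own wild types beyond the spread between libraries. tRNA-Asp-GTC-1-5 read 28.8, 24.2 and 24.8 normalised counts in wild type and 27, 28.9 and 21.2 in the livers labelled Phe31. The log2 change was -0.02 (SE 0.23, limma adjusted p = 0.989), and its sign turned under other scalings. tRNA-Pro-CGG-1-1 read 26.4, 28.1 and 26.9 against 28.2, 27.5 and 42.3, where a single library stood above the rest. The log2 change was 0.23 (SE 0.22, limma adjusted p = 0.633). tRNA-Ala-TGC-3-1 read 57.7, 50.8 and 52.4 against 56.3, 46.7 and 52.9, and the groups overlapped. The log2 change was -0.05 (SE 0.16, limma adjusted p = 0.910). Of the 178 loci tested here 1.69% were called higher and 8.99% lower, or 3 and 16, which became 1 and 21 under TMM scaling and 6 and 10 under loess. At 4719 to 5576 reads per library the livers labelled Phe31 were the shallowest of the series.

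In brain none of the 3 loci passed the threshold in any genotype, and the largest differences were those of the proline and alanine loci in Phe21 brain. At tRNA-Pro-CGG-1-1 wild-type replicates 1, 2 and 3 read 106, 112 and 109 normalised counts and Phe21 replicates 7, 8 and 9 read 141, 145 and 123. Each Phe21 brain was above each wild-type brain, with a log2 change of 0.32 (SE 0.10, limma adjusted p = 0.106). At tRNA-Ala-TGC-3-1 the wild types read 248, 224 and 260 and the Phe21 brains 294, 287 and 276, again without overlap (log2 change 0.23, SE 0.07, limma adjusted p = 0.116). Such separation was seen at 13.8% of the 253 loci tested. tRNA-Asp-GTC-1-5 read 122, 113 and 117 in wild type and 105, 125 and 116 in Phe21 brain, with a log2 change of -0.03 (SE 0.10, limma adjusted p = 0.892) and overlapping groups. Limma called 0% of loci higher and 0% lower in Phe21 brain, where 43 loci had an unadjusted p under 0.05, edgeR called 2 and DESeq2 called 0. Under TMM scaling limma called 7 loci higher and 2 lower, none of them a member.

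In Phe11 brain tRNA-Pro-CGG-1-1 lay below wild type in every library. Wild-type replicates 1, 3, 16 and 18 read 108, 110, 105 and 112 normalised counts and Phe11 replicates 5, 6, 13 and 14 read 82.7, 96.9, 102 and 96.6. The log2 change was -0.21 (SE 0.09, limma adjusted p = 0.0852), and every knockout lay below every wild type at 13.7% of the 263 loci tested. tRNA-Ala-TGC-3-1 read 253, 262, 267 and 240 against 257, 248, 209 and 218, with a log2 change of -0.14 (SE 0.06, limma adjusted p = 0.0744). The groups overlapped, and the lower Phe11 brains were those of batch 2. Within batch 2 the log2 change of this locus was -0.24 (limma adjusted p = 0.0267) and within batch 1 -0.03 (limma adjusted p = 0.845). It also passed the threshold without wild-type replicate 1 (-0.17, limma adjusted p = 0.0302) or without Phe11 replicate 5 (-0.17, limma adjusted p = 0.0474). tRNA-Asp-GTC-1-5 read 124, 118, 109 and 123 against 101, 102, 117 and 127 (log2 change -0.09, SE 0.09, limma adjusted p = 0.491), with -0.25 within batch 1 and 0.08 within batch 2. For tRNA-Pro-CGG-1-1 the values within batches were -0.28 and -0.13. Over all loci, 14.8% were called higher and 13.3% lower in Phe11 brain, or 39 and 35, and 48 and 27 with equal library totals.

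In Phe31 brain the groups overlapped at each locus. tRNA-Asp-GTC-1-5 ranged over 108 to 117 normalised counts in wild type and 104 to 113 in Phe31 brain (log2 change -0.05, SE 0.10, limma adjusted p = 0.986). For tRNA-Pro-CGG-1-1 the ranges were 102 to 107 and 87.1 to 110 (-0.11, SE 0.11, limma adjusted p = 0.931), and for tRNA-Ala-TGC-3-1 they were 214 to 248 and 223 to 254 (0.05, SE 0.09, limma adjusted p = 0.986). Limma called 0% of the 258 loci higher and 0.775% lower. At an unadjusted p under 0.05 there were 16 loci, and edgeR called 2 and DESeq2 1.

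**Figure D3:**
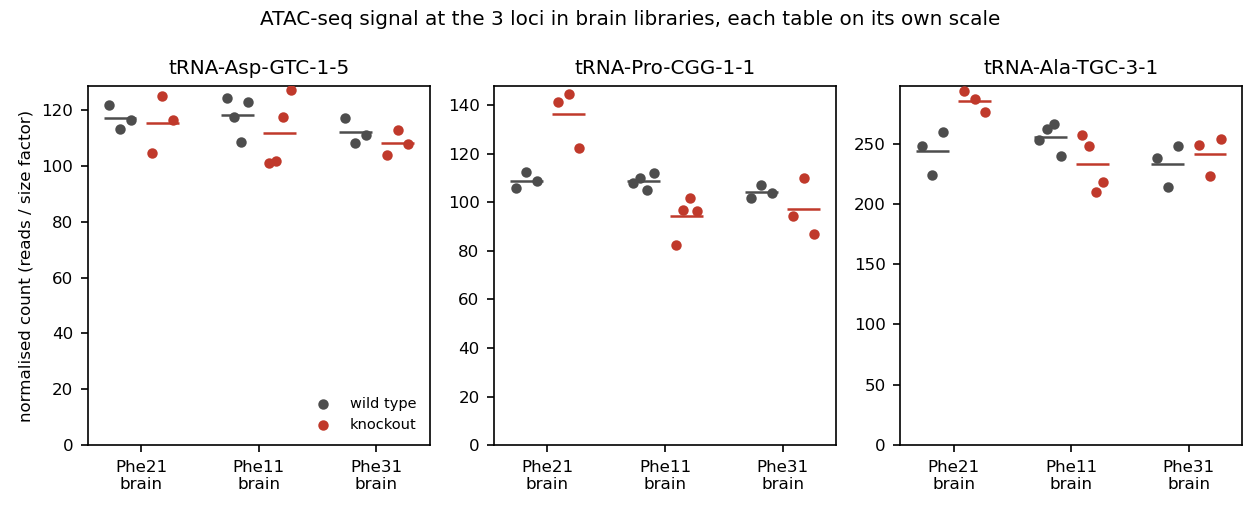
Normalised counts (reads over size factor, vertical axis) of the 3 loci in each brain library of the Phe21, Phe11 and Phe31 tables, with wild type in grey, knockout in red and lines at the mean. The proline and alanine loci lie higher in Phe21 brain, the proline locus lies lower in Phe11 brain, and none of these differences passed the threshold.

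Wild-type brain was compared with the unnumbered wild-type livers, whose means on the same scale are given above. Reads per 10000 in 5 wild-type brains were 41.5 to 47.8 at tRNA-Asp-GTC-1-5 (mean 45.2 ± 2.58), 40.2 to 43.8 at tRNA-Pro-CGG-1-1 (42.3 ± 1.46) and 87.3 to 102 at tRNA-Ala-TGC-3-1 (96.0 ± 6.05, SD, n = 5 each). In the edgeR quasi-likelihood test of these brains against the 3 unnumbered wild-type livers, the log2 differences were 0.04 (adjusted p = 0.836), -0.13 (adjusted p = 0.478) and 0.07 (adjusted p = 0.589), over a median of -0.03 for the 247 loci tested, of which 58.3% were called in either direction. With library totals in place of TMM scaling, tRNA-Ala-TGC-3-1 passed the threshold (0.24, adjusted p = 0.038) and tRNA-Pro-CGG-1-1 turned to 0.04. Tissue and batch cannot be told apart in this test. Set beside the numbered livers, the same brains were higher by 1.14, 0.67 and 1.14 on log2(reads per 10000 + 1), given without a test because those livers entered the selection.

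Ordered by level on this scale, tRNA-Asp-GTC-1-5 ran from 20.0 in the numbered wild-type livers through 37.4 (Phe11 liver), 39.3 (unnumbered wild-type liver), 39.7 (Phe21 liver) and 40 (liver labelled Phe31) to 43.8 (Phe21 brain), 44.2 (Phe31 brain), 44.3 (Phe11 brain) and 45.2 (wild-type brain). The step from the numbered wild-type livers to the Phe11 livers was larger than either SD. The first step at each of the 3 loci is a description, since the low level of the numbered livers was part of what selected the loci. Each later step was smaller than the larger of the neighbours' SDs. At tRNA-Pro-CGG-1-1 the order ran from 26.9 in the numbered wild-type livers to 51.8 in Phe21 brain, with the livers labelled Phe31 at 50.7 ± 12.4. The step from the numbered livers to the next group, Phe11 brain at 37.4 ± 3.17, was larger than either SD. At tRNA-Ala-TGC-3-1 it ran from 43.9 in the numbered wild-type livers over 56.4 in Phe11 liver to 81.0 in the livers labelled Phe31, and up to 109 in Phe21 brain. The unnumbered wild-type livers, the Phe21 livers and the livers labelled Phe31 (81.0 to 81.5) could not be ordered within their SDs, and nor could Phe11, wild-type and Phe31 brain (92.3 to 98.7).

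Called loci of the same families moved up in Phe21 liver, down in Phe11 liver and both ways in Phe11 brain. Of the 15 other loci named tRNA-Asp-GTC-, the 15 other proline tRNA loci and the 10 other loci named tRNA-Ala-TGC-, between 6 and 9, 10 and 13, and 0 and 4 were tested in a table. In Phe21 liver, the comparison that selected the members, 3 of 7, 2 of 11 and 1 of 2 were called higher and 0 lower, beside 8.46% of all loci higher and 4.98% lower. The median log2 changes were 0.33, -0.04 and 0.53, beside 0.10 over all 201 loci. The called aspartate loci were tRNA-Asp-GTC-1-13 (log2 change 0.50, from 56.1 to 80.4 normalised counts), tRNA-Asp-GTC-2-1 (0.47, from 39.6 to 56.0) and tRNA-Asp-GTC-1-7 (0.43, from 72.4 to 98.1). The others were tRNA-Pro-AGG-1-6 (0.53, from 37.0 to 54.0), tRNA-Pro-TGG-2-2 (0.51, from 32.6 to 46.6) and tRNA-Ala-TGC-4-1 (0.49, from 36.7 to 51.7). edgeR called 1 of these families' loci and DESeq2 0. The count fell from 6 to 2 without wild-type replicate 3, to 1 without Phe21 replicate 8 and to 0 without Phe21 replicate 9.

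In Phe11 liver the family members that were called moved down, not up. tRNA-Asp-GTC-1-7, whose gene body is identical to that of tRNA-Asp-GTC-1-5, fell from 65.7 to 14 normalised counts (log2 change -2.18, SE 0.18, limma adjusted p = 3.76e-18), and all 4 knockouts (11.5 to 18.4) lay below all wild types (62.7 to 70.1). tRNA-Asp-GTC-1-6 fell from 15.7 to 4.76 (log2 change -1.70, SE 0.37, limma adjusted p = 0.000476). tRNA-Ala-TGC-4-1 fell from 34.8 to 6.64 (log2 change -2.25, SE 0.25, limma adjusted p = 4.84e-12). The study reports that nucleosome-free coverage in Phe11 liver also fell beyond the deleted locus, with a reduction downstream at tRNA-Asp and tRNA-Ala loci. Whether the loci named here are among those was not tested. Of the families' loci tested, 2 of 7 aspartate, 0 of 11 proline and 1 of 2 alanine loci were called lower and 0 were called higher, beside 6.76% of all loci lower and 5.31% higher, or 14 and 11. Over all loci edgeR called 15 lower and 8 higher, and DESeq2 10 and 1. With wild-type replicates 1 and 22 averaged, 2 of the families' loci were called in place of 3. At an unadjusted p under 0.05 there were 3, 1 and 1. Medians were 0.04, 0.16 and -0.98, beside 0.06 over all loci.

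The livers labelled Phe31 showed 1 called locus in these families, of 6 aspartate, 10 proline and 0 alanine loci tested. Over all loci of this comparison 8.99% were called lower and 1.69% higher. The called locus was again tRNA-Asp-GTC-1-7, which fell from 17.8 to 5.49 normalised counts (log2 change -1.53, SE 0.35, limma adjusted p = 0.000601) beside means of 25.9 and 25.7 at tRNA-Asp-GTC-1-5. edgeR also called 1 and DESeq2 called 0, and the call was lost without wild-type library b. The wild-type mean of tRNA-Asp-GTC-1-7 was 65.7 in the Phe11 liver comparison and 17.8 here, each on its own scale. At tRNA-Asp-GTC-1-5 these means were 20.1 and 25.9, and the cause was not tested. In Phe11 brain 3 of 9 aspartate loci were called lower: tRNA-Asp-GTC-1-6 (log2 change -0.35), tRNA-Asp-GTC-1-7 (-0.26) and tRNA-Asp-GTC-1-10 (-0.23). Likewise 2 of 4 alanine loci were called lower, tRNA-Ala-TGC-6-1 (-0.56) and tRNA-Ala-TGC-2-1 (-0.33), while 2 of 12 proline loci were called higher, tRNA-Pro-CGG-1-3 (0.59, from 19.9 to 30.6) and tRNA-Pro-TGG-2-2 (0.30). tRNA-Pro-CGG-1-3 has the same gene body as tRNA-Pro-CGG-1-1, which read lower in these brains. Over all loci 14.8% were called higher and 13.3% lower, so the 2 of 12 proline loci lie near that share. The count of 7 fell to 4 when Phe11 replicate 13, wild-type replicate 1 or wild-type replicate 16 was left out, to 2 without wild-type replicate 18 or Phe11 replicate 5, and to 1 without Phe11 replicate 14. In Phe21 and Phe31 brain limma called 0 of the families' loci, with 5 and 1 at an unadjusted p under 0.05. edgeR and DESeq2 also called 0 in both, and 2 were called in Phe21 brain without Phe21 replicate 7.

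**Figure D4:**
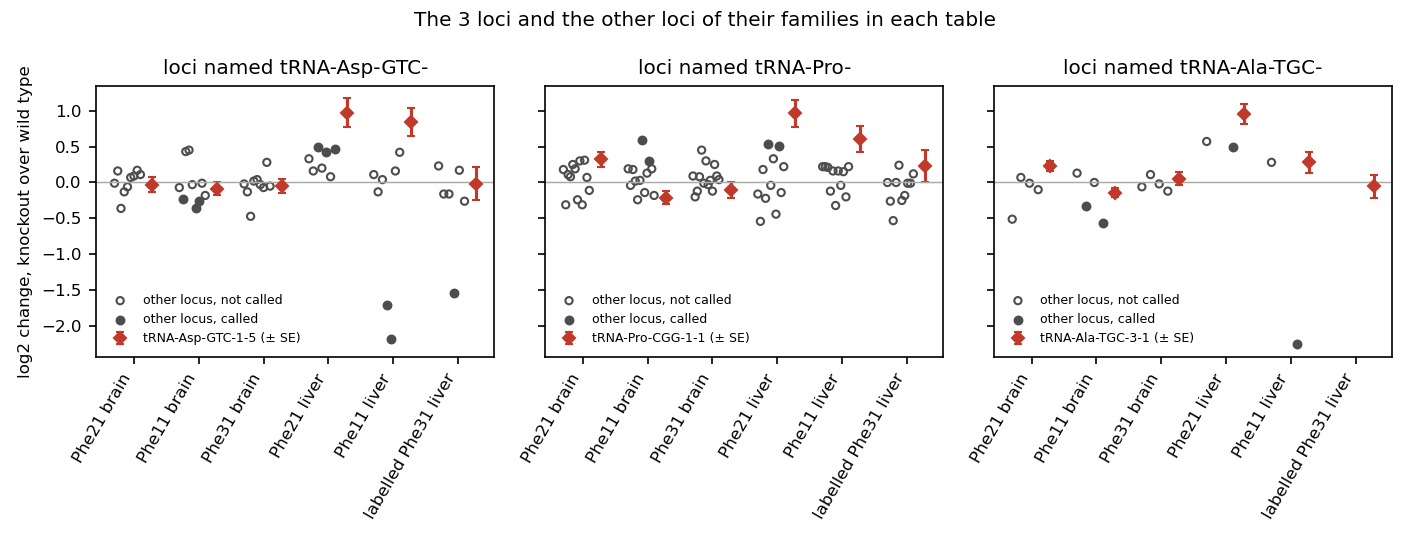
Log2 change of knockout over wild type (vertical axis) for the other tested loci of each family (circles, filled where limma called them at an adjusted p under 0.05) and for the member itself (red diamond with SE) in the 6 tables. Called aspartate and alanine loci lie far below 0 in Phe11 liver, where tRNA-Asp-GTC-1-5 lies at 0.84. The members' values in Phe21 and Phe11 liver are descriptions.

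Across the 17 livers, the loci whose levels followed the members most closely included the loci just outside the selection. By Pearson's r of log2(reads per 10000 + 1) over 202 loci, tRNA-Asp-GTC-1-5 was closest to tRNA-His-GTG-2-1 (0.76), tRNA-Ser-TGA-1-1 (0.74) and tRNA-Ala-TGC-3-1 (0.71). tRNA-Pro-CGG-1-1 was closest to tRNA-Ser-TGA-1-1 (0.83), tRNA-Leu-TAG-3-1 (0.71) and tRNA-Asp-GTC-1-5 (0.70), and tRNA-Ala-TGC-3-1 to tRNA-Leu-AAG-1-1 (0.81), tRNA-His-GTG-2-1 (0.80) and tRNA-Gln-CTG-2-3 (0.78). These values share the libraries, their depth and the groups that selected the members, and are a description. Across the 15 brains tRNA-Asp-GTC-1-5 was closest to tRNA-Thr-TGT-1-1 (0.61), tRNA-Gly-GCC-2-8 (0.56) and tRNA-Ser-AGA-2-1 (0.54), and its r with tRNA-Ala-TGC-3-1 was -0.56. The closest in brain to tRNA-Pro-CGG-1-1 were tRNA-Val-TAC-1-3 (0.85), tRNA-Asp-GTC-1-10 (0.81) and tRNA-Leu-AAG-2-1 (0.75), and to tRNA-Ala-TGC-3-1 they were tRNA-Ser-TGA-1-1 (0.82), tRNA-Thr-CGT-2-1 (0.77) and tRNA-Glu-CTC-1-7 (0.72). The members' r with one another was 0.61 to 0.71 in liver and -0.56 to 0.30 in brain.

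The deposited consensus peaks, on GRCm38.p6, were compared with the RefSeq tRNA genes of that build with an overlap of at least 1 base. All 3 genes for the proline tRNA with anticodon CGG had a peak in each brain list. In each liver list 2 had one, at chr1:165642271-165642342 and chr11:69040385-69040456, and the gene at chr17:23540915-23540986 had none. None of these 3 lies within another RefSeq gene span. Of 16 genes for the aspartate tRNA with anticodon GTC, 7 to 8 had a peak in the brain lists and 5 to 7 in the liver lists, and of 11 genes for the alanine tRNA with anticodon TGC 5 in each brain list and 2 to 4 in the liver lists. The lists were called on pooled groups, so they give no spread between animals.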

How the data were processed

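ATAC-seq signal was available for 32 mouse libraries. Per the methods and the submitters' processing notes, the authors aligned reads with Bowtie2 2.4.1 to GRCm38.p6, removed duplicates with Picard 2.23.8, kept nucleosome-free fragments and counted them with featureCounts 2.0.0 over each tRNA gene and its flanks. The deposited signal at a locus is that count divided by 1 DESeq2 size factor per library and table. Per the labels, batches are numbered 1 to 3. Deposited tables of the authors' own fold changes and p-values were not used. Genrich 0.6 peaks merged by DiffBind 3.0.8 were used for position only.

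Whole reads were recovered in all 40 columns within 0.0001 of a whole number, and the 8 columns that repeat a library of another table gave identical reads. Loci whose normalised counts averaged at least 10 were tested within a table by limma 3.58.1 with trend on log2(value + 1), two-sided, in R 4.3.3, with batch as a term in Phe11 tables and Benjamini-Hochberg adjustment over all tested loci at 0.05. Tissues were compared on recovered reads with edgeR 4.0.16, and DESeq2 1.42.0 was an alternative. Alternatives also covered pseudocounts of 0.1 and 10, dropping the filter or raising it to 30, other scalings, batches and libraries left out. The fits were tested on simulated data. The members and lists were chosen with earlier results of these data known. Named loci were the members, the 2 next in order, the called family loci (up to 5 per family and table), the 3 closest by correlation and the deleted loci. Counting error alone limits low values: the numbered wild-type livers held 11 to 28 reads per library at the aspartate and proline loci.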

Additional observations from a re-analysis of the deposited data

Results flagged for a closer look

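Phe11 liver replicate 6 stood apart at tRNA-Asp-GTC-1-5, with a normalised count of 47.8 beside 32.2 to 34.7 in the other 3 Phe11 livers. Of 15 groups of 4 to 6 samples examined in this way 1 stood out, and chance flags about 1 in 20. Without this library the log2 change of the locus was 0.73.

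tRNA-Pro-CGG-1-1 had log2 changes of opposite sign in the tissues of Phe11 mice. It was -0.21 in brain (limma adjusted p = 0.0852), where every Phe11 library lay below every wild type, as at 13.7% of the loci tested. It was 0.60 in liver, where every Phe11 library lay above every wild type, as at 5.31% of the loci tested. The difference between tissues was not tested, since 3 of the wild-type livers entered the selection of the locus.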

How the results depend on the processing

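In Phe21 and Phe11 liver the 3 members lay above wild type under each alternative that gave a value. With a mean of at least 30, tRNA-Asp-GTC-1-5 was not tested in Phe11 liver. Beyond 1 SD of its libraries moved tRNA-Asp-GTC-1-5 alone, in Phe21 liver to 0.76 (pseudocount 10), 1.04 (TMM), 0.89 (loess), 0.90 (edgeR) and 0.91 (DESeq2), and in Phe11 liver to 0.64 (pseudocount 10). That SD was small in Phe21 liver, where the wild types of this locus read 22.4 to 22.8. The other loci shifted by similar amounts on the log2 scale. In Phe21 liver tRNA-Pro-CGG-1-1 went from 0.96 to 0.77 (pseudocount 10) and 0.86 (DESeq2), and tRNA-Ala-TGC-3-1 from 0.95 to 0.83 and 0.82. Near-identical libraries averaged, an alternative chosen after seeing the data, moved no member beyond 1 SD, with 0.97, 1.1 and 0.87 in Phe21 liver, 0.81, 0.56 and 0.30 in Phe11 liver and -0.08, -0.20 and -0.14 in Phe11 brain for the aspartate, proline and alanine locus. Signs turned for small changes. In the livers labelled Phe31 tRNA-Asp-GTC-1-5 gave 0.02 (equal totals), 0.01 (loess), 0.02 (edgeR) and 0.05 (DESeq2), and -0.11 to 0.11 with a library left out, and tRNA-Ala-TGC-3-1 gave 0.03 (loess) and 0.02 (DESeq2), and -0.10 to 0.03. In Phe11 brain tRNA-Ala-TGC-3-1 gave 0.00 (loess), -0.24 within batch 2 (called) and -0.17 to -0.08 with a library left out, and tRNA-Asp-GTC-1-5 gave 0.08 within batch 2. With a library left out, tRNA-Asp-GTC-1-5 in Phe21 brain ran from -0.09 to 0.04 and tRNA-Ala-TGC-3-1 in Phe31 brain from -0.01 to 0.11. Brain over unnumbered liver gave 0.04 (library totals) and 0.05 (no filter) at tRNA-Pro-CGG-1-1, and 0.24 and 0.25 (both called) at tRNA-Ala-TGC-3-1. Without the batch term, a fit chosen after seeing the data, tRNA-Asp-GTC-1-5 in Phe11 liver against replicate 22 was 1.00, a value with no test since that single library is not independent of the selection. The cause of these moves was not tested.

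Counts of other family loci called depended on the setting. In Phe11 brain the 7 became 2 (no filter and limma without trend), 4 (TMM, equal totals and near-identical libraries averaged), 3 (loess and batch 2), 1 (DESeq2) and 0 (batch 1), and 1 to 5 with a library left out. In Phe21 liver the 6 became 0 (no filter, limma without trend and DESeq2), 3 (mean of at least 30, equal totals and near-identical libraries averaged) and 1 (loess and edgeR), and 0 to 6 with a library left out. In Phe21 brain the 0 became 2 under TMM and 0 to 2 with a library left out. In Phe11 liver the 3 became 1 with a mean of at least 30, which tests fewer loci, and 2 to 4 with a library left out. In the livers labelled Phe31 the 1 became 0 (no filter, mean of at least 30 and DESeq2), and 0 to 1. No paired analysis was possible because the genotypes compared within a table share no replicate number in the labels. The columns of the Phe31 liver table carry no sample number that matches the labels. Their names end in a running number within each genotype, which the sources used here do not tie to pairs of mice. Wild-type replicates 1 and 22 are not both in the Phe21 liver table, so averaging them there was not run. Over all loci, DESeq2 called 34 against 74 by limma in Phe11 brain, 11 against 25 in Phe11 liver, 17 against 27 in Phe21 liver and 1 against 19 in the livers labelled Phe31, where edgeR called 7.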
